A study of Mus musculus with 13 samples.

Results

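The genes described here are 5 subunits of the phagocyte NADPH oxidase, namely Ncf1, Ncf4, Cyba, Cybb and Rac2, together with Mpo and Lyz2, a pair of genes that mark myeloid cells. They were chosen by name, and all 7 were present among the 22048 genes shared by the count tables of the 3 stages. The wider pre-Treg table lists 47729 genes. The choice was made with earlier results of these data known. Which values led to it is recorded for Ncf1 only, through its difference between genotypes in splenic cells, so the genotype values of all 7 genes in the spleen are given as a description without a test.

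The libraries were made from sorted CD4 T cells at 3 stages of regulatory T cell (Treg) life in C57BL6/J mice, and every mouse carried the Foxp3rfp reporter allele. The knockout was cRel-/-, which removes c-Rel, the NF-kB family transcription factor encoded by Rel, and the wild type was cRel+/+. Pre-Tregs of the thymus gave 3 knockout and 2 wild-type libraries, de novo Tregs of the thymus gave 2 and 2, and tTregs of the spleen (splenic Tregs) gave 2 and 2, 13 in all. Cells were enriched for CD4 with magnets and then sorted by flow cytometry, and age is not stated. The labels do not say which libraries come from separate mice, so p-values cover the variation from library to library alone, and this can be technical.

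In phagocytes the oxidase moves electrons from NADPH to oxygen and so makes superoxide, which serves in killing microbes. Cybb encodes the catalytic membrane subunit and Cyba its partner, and cytosolic subunits, among them those encoded by Ncf1 (the organizer) and Ncf4, join them with a Rac GTPase on activation. Neutrophils, macrophages and B cells are the cells best known for expressing the complete set. Mpo encodes myeloperoxidase, a granule enzyme of neutrophil and monocyte precursors that uses the hydrogen peroxide formed from superoxide, and Lyz2 encodes lysozyme M of macrophages and granulocytes.

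Levels are CPM, the deposited counts divided by the library's total over the shared genes after trimmed mean (TMM) scaling. Library totals ran from 13656304 to 35114430 counts, and a floor of 3 counts, the smallest level read as detected, stood at 0.0880 to 0.218 CPM. Rel itself was read in all libraries, at 54.9, 52.2 and 65.9 CPM in knockout and 103.5 and 99.6 CPM in wild-type pre-Tregs, 92.0 and 101.3 against 104.3 and 101.7 CPM in de novo Tregs, and 43.3 and 46.0 against 47.2 and 56.6 CPM in splenic Tregs. Gene-level counts do not show which exons were read, so Rel does not check the genotype labels. Of the T cell genes, Cd3e ranged over 789 to 1101 CPM and Cd4 over 654 to 991 CPM across all libraries. Foxp3, the factor that defines Tregs, stood at 19.8 to 49.1 CPM in knockout and 32.5 to 101.3 CPM in wild-type pre-Tregs, and at 682 to 921 CPM in all 8 Treg libraries of the other stages.

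The stretches around the start sites of Ncf1 and Cybb are shown because Ncf1 was the subunit with the largest genotype difference outside low counts and Cybb the one with the largest difference between stages. Each runs 5′ to 3′ along the gene's own strand from 250 bases before to 50 bases after the RefSeq start (build GRCm38.p6), with matches to searched motifs in capitals. Ncf1 is at chr5:134229576-134229875 and Cybb at chrX:9469275-9469574, both on the minus strand.
Ncf1: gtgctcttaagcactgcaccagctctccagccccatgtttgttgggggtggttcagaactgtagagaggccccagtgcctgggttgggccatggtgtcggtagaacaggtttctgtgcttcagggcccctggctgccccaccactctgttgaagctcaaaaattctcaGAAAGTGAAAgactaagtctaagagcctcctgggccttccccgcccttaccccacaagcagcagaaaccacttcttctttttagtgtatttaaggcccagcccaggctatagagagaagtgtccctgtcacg
Cybb: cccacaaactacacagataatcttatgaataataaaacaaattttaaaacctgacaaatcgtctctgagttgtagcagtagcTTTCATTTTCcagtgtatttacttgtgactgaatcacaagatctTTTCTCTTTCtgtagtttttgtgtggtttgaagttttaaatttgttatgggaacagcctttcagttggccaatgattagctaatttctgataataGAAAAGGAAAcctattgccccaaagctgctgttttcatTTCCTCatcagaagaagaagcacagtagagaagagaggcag

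Windows were in the RefSeq table for 5 of the 7 members. Both strands were searched for 3 motifs: the NF-kB consensus, an interferon-stimulated element (GAAA, any 2 bases, then GAAA) and the PU box GAGGAA, a core bound by the myeloid and B cell factor encoded by Spi1. The capitals in the Ncf1 window are a match to the interferon-stimulated element 82 bases before the start. In the Cybb window they are 3 matches to that element, 168, 124 and 29 bases before the start, and 1 PU box on the opposite strand 9 bases after it. None of these matches overlaps another. The NF-kB consensus had 0 matches in the windows of Ncf1, Cyba, Cybb, Mpo and Lyz2, which says only that these letters are not in these windows. Among 32851 RefSeq windows of the same length, 4.51% held the NF-kB consensus, 28.3% a PU box and 3.44% the interferon-stimulated element. The Mpo window held 2 PU boxes, and those of Cyba and Lyz2 held none of the motifs.

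Ncf1 (ENSMUSG00000015950, chromosome 5, 134220053 to 134229625, minus strand, GRCm38) was the only 1 of the 5 subunits that was lower in every knockout library than in every wild-type library at all 3 stages. De novo Tregs held 29.8 and 28.0 CPM in the knockout and 104 and 110 CPM in wild type. Splenic Tregs held 8.48 and 5.87 CPM in the knockout and 23.2 and 25.5 CPM in wild type, and pre-Tregs 4.83, 4.41 and 6.58 CPM in the knockout and 9.35 and 14.7 CPM in wild type. The highest knockout level of a stage was thus under the lowest wild-type level each time. The share of all genes separated in this way was not computed, and the splenic difference is the one recorded in the choice of Ncf1. In de novo Tregs Ncf1 fell 3.70-fold in the knockout, which is −1.89 on the log2 scale with an SE of 0.10 (adjusted p = 7.84e-07, edgeR's quasi-likelihood test with Benjamini-Hochberg adjustment over all genes). In splenic Tregs the log2 fold change was −1.76 (SE 0.20), given without a test. In pre-Tregs it was −1.18 (SE 0.33) and missed the threshold, with an edgeR adjusted p of 0.703 and an unadjusted p of 0.00707. With the spread taken from all 13 libraries in place of the 5 pre-Treg libraries, the adjusted p there was 0.0392 in edgeR. That spread is smaller: edgeR's common coefficient of variation between libraries was 0.189 over all libraries and 0.284 in pre-Tregs. The value of 0.0392 may therefore understate the variation of pre-Tregs.

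**Figure D1:**
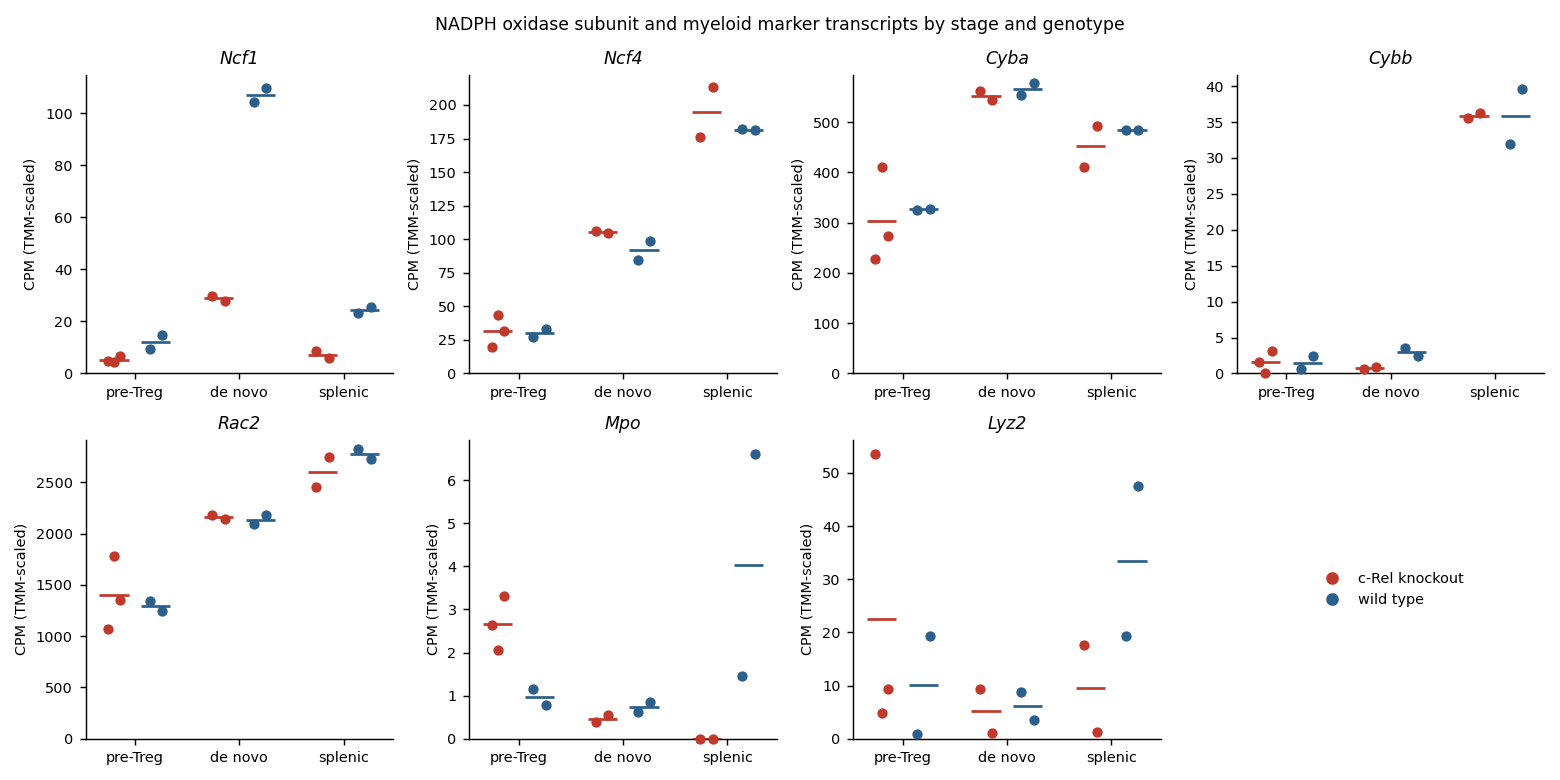
Levels of the 7 genes in CPM (vertical axes, linear, each from 0), 1 point per library and a bar for the group mean, with knockout left of wild type at each stage. Ncf1 is lower in the knockout at every stage, Cybb is above 30 CPM in the 4 splenic libraries only, and Mpo is at 0 in both splenic knockout libraries.

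The level of Ncf1 also followed stage, highest in de novo Tregs in both genotypes. From here on a stage comparison reads later over earlier stage, from a single fit to all 13 libraries. The stages were counted in separate tables and the spleen is another tissue, so stage, table and tissue cannot be told apart. Ncf1 was higher in de novo Tregs than in pre-Tregs in the knockout (2.46 on the log2 scale, SE 0.22, edgeR adjusted p = 7.12e-06) and in wild type (3.16, SE 0.25, edgeR adjusted p = 1.14e-05). It was lower in splenic than in de novo Tregs in the knockout (−2.01, SE 0.24, edgeR adjusted p = 0.000271) and in wild type (−2.13, SE 0.24, edgeR adjusted p = 0.000298). The splenic values of Ncf1 also entered the genotype difference recorded in its choice. The p-values of splenic over de novo Tregs are therefore not independent of that choice. The genotype difference itself was compared between the thymic stages: the log2 fold change of de novo Tregs minus that of pre-Tregs was −0.69 (SE 0.33), and this difference missed the threshold (edgeR adjusted p = 0.508). In bulk RNA such as this, fewer expressing cells and less RNA per cell cannot be told apart.

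Ncf4 (chromosome 15, 78244801 to 78262580, plus strand), which encodes the cytosolic subunit that binds a membrane phosphoinositide, differed by stage, and no genotype difference passed the test in the thymus. Pre-Tregs held 20.0, 43.2 and 31.4 CPM in the knockout and 27.5 and 33.4 CPM in wild type. De novo Tregs held 106 and 105 CPM in the knockout against 84.4 and 98.9 CPM in wild type, and splenic Tregs 176 and 213 CPM against 182 and 181 CPM. Its level thus stood higher at each later stage, and the libraries of consecutive stages did not overlap. De novo over pre-Tregs gave log2 fold changes of 1.74 in the knockout (SE 0.23, edgeR adjusted p = 0.00017) and 1.59 in wild type (SE 0.27, edgeR adjusted p = 0.00138). Splenic over de novo Tregs gave 0.88 in the knockout (SE 0.26, edgeR adjusted p = 0.0391) and 0.99 in wild type (SE 0.26, edgeR adjusted p = 0.0345). Both of these later calls were lost without any 1 of the 4 libraries compared, with edgeR adjusted p of 0.0725 to 0.224 in the knockout and 0.124 to 0.258 in wild type. Between genotypes Ncf4 differed by 0.20 on the log2 scale in de novo Tregs (SE 0.09, edgeR adjusted p = 0.287), higher in both knockout libraries, and by 0.07 in pre-Tregs (SE 0.33, edgeR adjusted p = 0.954). In splenic Tregs the log2 fold change was 0.10 (SE 0.12).

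Since Ncf1 and Ncf4 encode partners in the cytosol, their ratio was taken per gene length, as CPM per kilobase of the deposited gene length. The Ncf4 to Ncf1 ratio was 6.46 and 6.78 in knockout de novo Tregs, against 1.47 and 1.63 in wild type. In splenic Tregs it was 37.6 and 65.7 in the knockout, against 14.2 and 12.9 in wild type. In pre-Tregs it was 7.51, 17.8 and 8.65 in the knockout and 5.33 and 4.13 in wild type, so the groups did not overlap at any stage. Ncf1 is part of the ratio and was itself apart between genotypes at each stage, while Ncf4 differed little. The ratio thus restates the Ncf1 difference and is not a separate result.

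Cybb (chromosome X, 9435252 to 9487771, minus strand) was low in the thymus and clearly read in the spleen. Pre-Tregs held 1.61, 0.07 and 3.15 CPM in the knockout and 0.58 and 2.41 CPM in wild type. De novo Tregs held 0.67 and 0.87 CPM in the knockout and 3.53 and 2.38 CPM in wild type, and splenic Tregs 35.6 and 36.2 CPM in the knockout and 32.0 and 39.6 CPM in wild type. The thymic levels rest on few reads, between 2 counts in pre-Treg knockout replicate 2 and 92 counts in de novo wild-type replicate 1, while the splenic libraries had 1033 to 1321 counts. The 4 splenic libraries lay above all 9 thymic ones. Splenic over de novo Tregs gave a log2 fold change of 5.53 in the knockout (SE 0.88, edgeR adjusted p = 0.0016). It gave 3.60 in wild type (SE 0.77, edgeR adjusted p = 0.0131), a call lost without any 1 of the 4 wild-type libraries compared (edgeR adjusted p of 0.0509 to 0.129).

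Between genotypes, Cybb was lower in the knockout in de novo Tregs, while the splenic groups overlapped. The log2 fold change in de novo Tregs was −1.93 (SE 0.42, edgeR adjusted p = 0.0193), and both knockout libraries lay below both wild-type libraries. This call was lost without wild-type replicate 1 (edgeR adjusted p = 0.126), without knockout replicate 1 (0.0649) and with the spread of all 13 libraries (0.635). In splenic Tregs the log2 fold change was 0.00 (SE 0.14), and in pre-Tregs 0.08 (SE 1.16, edgeR adjusted p = 0.987), where the libraries overlapped. The difference between the genotype effects of the thymic stages was −1.92 (SE 1.22, edgeR adjusted p = 0.611). De novo over pre-Tregs did not pass in either genotype, at −0.94 in the knockout (SE 0.87, edgeR adjusted p = 0.427) and 0.98 in wild type (SE 0.86, edgeR adjusted p = 0.399). Without pre-Treg knockout replicate 2, which has the 2 counts, the knockout value was −1.61 and passed (edgeR adjusted p = 0.0115). Because Cybb is on the X chromosome, sex-linked genes were looked at: Ddx3y, on the Y chromosome, was read at 21.3 to 86.99 CPM in the 13 libraries. Xist, made from the inactive X, was read in all 5 pre-Treg libraries, at 33.1 to 412 CPM of its table in the knockout and 251 to 335 CPM in wild type, so transcripts of both sexes were present.

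Cyba (chromosome 8, 122424772 to 122432940, minus strand), the membrane partner, was abundant at every stage, and no genotype difference passed the test in the thymus. It held 227, 412 and 274 CPM in knockout and 326 and 327 CPM in wild-type pre-Tregs, 562 and 543 against 555 and 577 CPM in de novo Tregs, and 411 and 493 against 485 and 484 CPM in splenic Tregs. The groups of the 2 genotypes overlapped at each stage. The genotype log2 fold changes were −0.09 in pre-Tregs (SE 0.26, edgeR adjusted p = 0.925), −0.03 in de novo Tregs (SE 0.07, edgeR adjusted p = 0.871) and −0.10 in splenic Tregs (SE 0.11). Cyba was higher in de novo Tregs than in pre-Tregs, by 0.86 on the log2 scale in the knockout (SE 0.19, edgeR adjusted p = 0.0051) and 0.79 in wild type (SE 0.22, edgeR adjusted p = 0.0167). The knockout call was lost without de novo replicate 1 (edgeR adjusted p = 0.0509), and the wild-type call without any 1 of its 4 libraries (0.0711 to 0.0978). Splenic against de novo Tregs gave −0.29 in the knockout (SE 0.21, edgeR adjusted p = 0.446) and −0.22 in wild type (SE 0.21, edgeR adjusted p = 0.617).

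Rac2 (chromosome 15, 78559169 to 78572783, minus strand), the blood-cell Rac GTPase that also serves T cell signalling, was the most abundant of the 7 in CPM. It held 1069, 1782 and 1356 CPM in knockout and 1345 and 1247 CPM in wild-type pre-Tregs. The levels were 2185 and 2142 against 2088 and 2183 CPM in de novo Tregs, and 2453 and 2746 against 2825 and 2724 CPM in splenic Tregs. The genotypes overlapped at each stage, and their log2 fold changes lay between −0.09 (SE 0.08) in splenic Tregs and 0.13 in pre-Tregs (SE 0.24, edgeR adjusted p = 0.872). Rac2 was higher in de novo Tregs than in pre-Tregs, by 0.63 on the log2 scale in the knockout (SE 0.17, edgeR adjusted p = 0.0128) and 0.72 in wild type (SE 0.18, edgeR adjusted p = 0.0131). The knockout call was lost without de novo replicate 1 (edgeR adjusted p = 0.0966) or replicate 2 (0.0809), and the wild-type call without any 1 of its 4 libraries (0.0605 to 0.0958). Rac1, the ubiquitous paralog that can take its place in the oxidase, ranged over 374 to 528 CPM in all libraries. It was 0.35 higher on the log2 scale in de novo than in pre-Tregs of the knockout (SE 0.11, edgeR adjusted p = 0.0247), a call lost without pre-Treg replicate 3 (0.0816), de novo replicate 1 (0.134) or de novo replicate 2 (0.163).

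**Figure D2:**
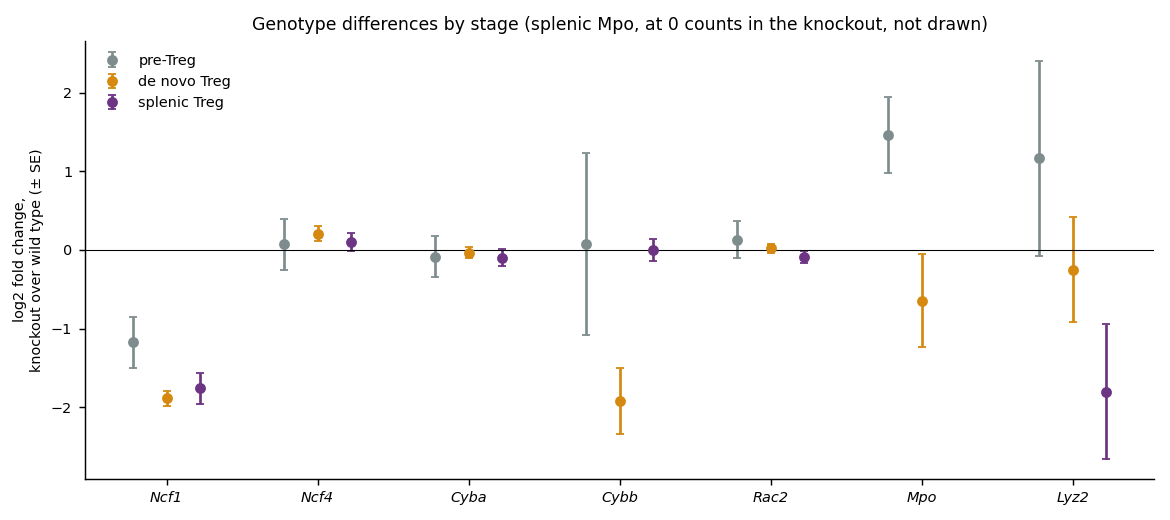
Log2 fold change of knockout over wild type (vertical axis) with its SE, by gene and stage. Ncf1 is below 0 at all stages, Cybb in de novo Tregs alone, and Ncf4, Cyba and Rac2 lie between −0.10 and 0.20 at all stages. Splenic Mpo is not drawn, because no fold is given where a whole group, here the knockout, is at 0 counts.

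Per gene length, the order of the oxidase genes was led by Cyba and Rac2, followed by Rac1 and Ncf4, in each of the 6 groups. In splenic knockout Tregs, Rac2 averaged 856 and Cyba 596 CPM per kilobase, Rac1 108 and Ncf4 96.2. Cybb followed at 6.18, then Ncf1 at 1.96, and no neighbours in this order overlapped. In splenic wild-type Tregs Ncf1 averaged 6.65 and Cybb 6.17 CPM per kilobase, and these neighbours overlapped. In de novo Tregs Ncf1 averaged 7.89 CPM per kilobase in the knockout and 29.2 in wild type, above Cybb in both, which reached at most 0.607 in any library there. The level of Cyba was 88.5 and 104 times that of Cybb in the splenic knockout libraries and 116 and 93.6 times in the wild-type ones, per length. In the thymus it was between 667 and 46836 times that of Cybb, the top value resting on 2 counts of Cybb.

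**Figure D3:**
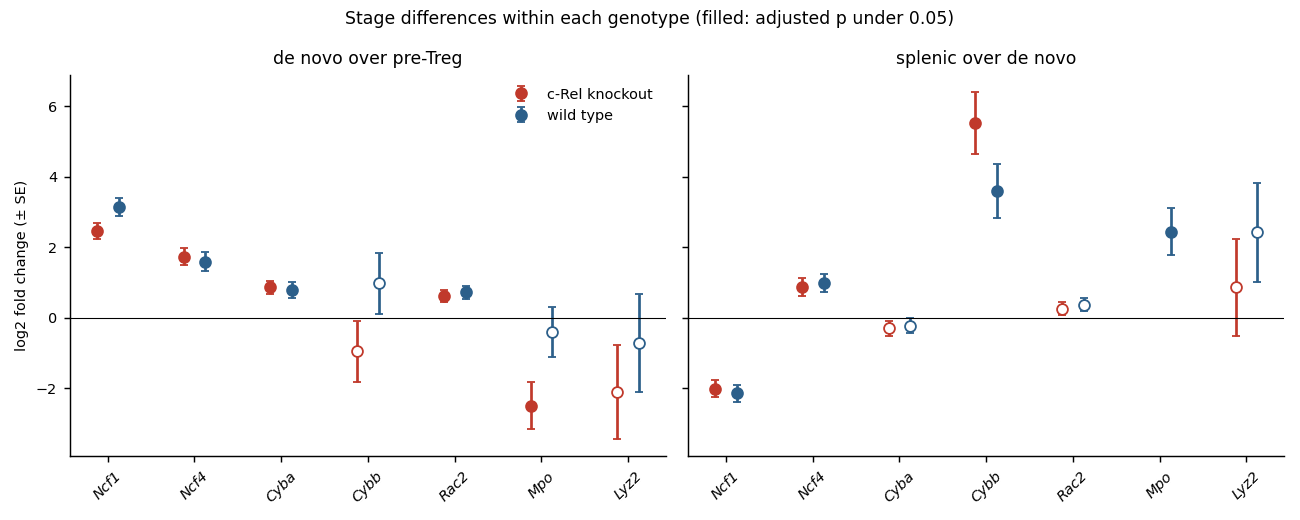
Log2 fold changes between stages within each genotype (vertical axis, with SE), de novo over pre-Tregs on the left and splenic over de novo Tregs on the right. Filled points have an edgeR adjusted p under 0.05. Ncf1 is above 0 on the left and below 0 on the right in both genotypes, and Cybb has the highest value on the right in each genotype. Mpo in the right panel is drawn for wild type alone, because the splenic knockout is at 0 counts.

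The myeloid markers did not share one pattern with each other or with Cybb. Mpo (chromosome 11, 87793581 to 87804413, plus strand) had 0 counts in both splenic knockout libraries, against 1.46 and 6.60 CPM in wild type. A count of 0 in each knockout library, set at the floor of 3 counts per library, makes Mpo at least 43.7-fold lower there than the wild-type mean, and at least 15.8-fold lower without wild-type replicate 2. In pre-Tregs it stood at 2.65, 2.05 and 3.32 CPM in the knockout and 1.16 and 0.78 CPM in wild type, and in de novo Tregs at 0.38 and 0.56 against 0.61 and 0.86 CPM. Every knockout library was above the wild-type libraries in pre-Tregs and below them at the other stages. The log2 fold changes of 1.46 in pre-Tregs (SE 0.49, edgeR adjusted p = 0.720) and −0.65 in de novo Tregs (SE 0.59, edgeR adjusted p = 0.648) did not pass. These levels come from 9 to 220 counts per library outside the splenic knockout.

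By stage, Mpo fell in the knockout at both steps and was higher in splenic wild-type cells. De novo over pre-Tregs gave a log2 fold change of −2.50 in the knockout (SE 0.67, edgeR adjusted p = 0.014), lost without de novo replicate 1 (0.116), de novo replicate 2 (0.0719) and in limma-voom (adjusted p = 0.057). Splenic knockout Tregs were at least 5.07-fold lower than de novo ones (edgeR adjusted p = 0.0105). In wild type, splenic over de novo Tregs gave 2.45 (SE 0.67, edgeR adjusted p = 0.046), which was 1.00 without splenic replicate 2 (edgeR adjusted p = 0.584). This call was also lost without de novo replicate 1 (0.283) or 2 (0.171) and in limma-voom (adjusted p = 0.121).

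Lyz2 (chromosome 10, 117277334 to 117282274, minus strand) varied more between libraries of one group than between groups. It stood at 53.6, 4.82 and 9.38 CPM in knockout and 0.87 and 19.4 CPM in wild-type pre-Tregs, 9.40 and 1.07 against 8.82 and 3.61 CPM in de novo Tregs, and 17.7 and 1.35 against 19.2 and 47.6 CPM in splenic Tregs. In the spleen both knockout libraries were below both wild-type libraries, at a log2 fold change of −1.80 (SE 0.86). It was −0.92 without knockout replicate 2 and −4.62 without knockout replicate 1. No tested comparison called Lyz2. In de novo Tregs it was −0.25 (SE 0.67, edgeR adjusted p = 0.904) with all libraries and −2.53 (edgeR adjusted p = 0.0012) without knockout replicate 1. Lyz1, its near-identical copy with which reads could be shared, had 0 to 9 counts per library.

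Cybb did not follow Lyz2 across the splenic libraries. In knockout replicate 2 Cybb stood at 36.2 CPM, while Lyz2 was at 1.35 CPM, Adgre1 and Fcgr3 at 0.03 CPM, and Mpo, Elane, Csf1r, C1qa, Cd14, Itgax and Ngp at 0 counts. Other myeloid markers were read in that library, among them Mmp9 at 5.90 CPM, against 1.98 and 3.63 CPM in wild type, Cd68 at 2.54 CPM, against 3.62 and 4.05 CPM, and Xcr1 at 1.64 CPM, against 0.96 and 0.54 CPM. In knockout replicate 1 Cybb stood at 35.6 CPM with Lyz2 at 17.7 and Csf1r at 4.34 CPM. In the wild-type libraries it stood at 32.0 and 39.6 CPM with Lyz2 at 19.2 and 47.6 and Csf1r at 13.4 and 14.2 CPM. Per gene length, the ratio of Cybb to Lyz2 was 0.439 and 5.86 in the splenic knockout libraries and 0.363 and 0.182 in the wild-type ones. In the thymus it lay between 0.00305 and 0.178 in all libraries, so the libraries did not keep these genes in 1 ratio. The part of myeloid cells in the splenic level of Cybb was not tested.

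The marker lists give the same values for whole cell types. The 21 macrophage and dendritic cell markers summed to 43.5 and 20.4 CPM in knockout and 63.6 and 71.6 CPM in wild-type splenic Tregs, 20.3 and 20.0 against 25.5 and 19.8 CPM in de novo Tregs, and 25.4 to 99.4 against 13.2 to 26.5 CPM in pre-Tregs. In splenic knockout replicate 2, 9 of the 21 were at 0, and Ms4a6c alone gave 13.2 of the 20.4 CPM. Ms4a6c varied little over the splenic libraries, at 12.8 and 13.2 CPM in the knockout and 10.6 and 11.8 CPM in wild type. The 12 granule markers summed to 22.8 and 6.23 against 4.37 and 29.2 CPM in splenic Tregs, 6.42 and 4.76 against 10.9 and 11.0 CPM in de novo Tregs, and 14.8 to 20.4 against 7.32 to 21.6 CPM in pre-Tregs. Ly6g, which marks neutrophils, had 7 counts in splenic wild-type replicate 2 and 0 in every other library. Pre-Treg knockout replicate 1 had the highest macrophage and dendritic sum of all libraries, 99.4 CPM, with Cybb at 1.61 CPM.

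B cells also express Cybb, and 11 of their markers summed to 100 and 66.2 CPM in knockout and 43.8 and 56.1 CPM in wild-type splenic Tregs. Ms4a1 and Blnk stood at 5.40 and 2.79 CPM in knockout replicate 1 and at 0.03 and 0 CPM in knockout replicate 2. In the wild-type libraries Ms4a1 stood at 0.37 and 0.84 CPM and Blnk at 0.06 and 0.96 CPM. Other B cell markers were read in knockout replicate 2, among them Cd79a at 5.65 CPM, against 3.72 and 5.31 CPM in wild type, and Bank1 at 3.08 CPM, against 2.39 and 3.60 CPM. The part of B cells in the splenic level of Cybb was not tested. The largest B cell marker was Cd79b, at 58.2 and 56.1 CPM in the knockout and 34.7 and 37.6 CPM in wild type, a log2 fold change of 0.66 (SE 0.11, edgeR adjusted p = 0.0435).

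**Figure D4:**
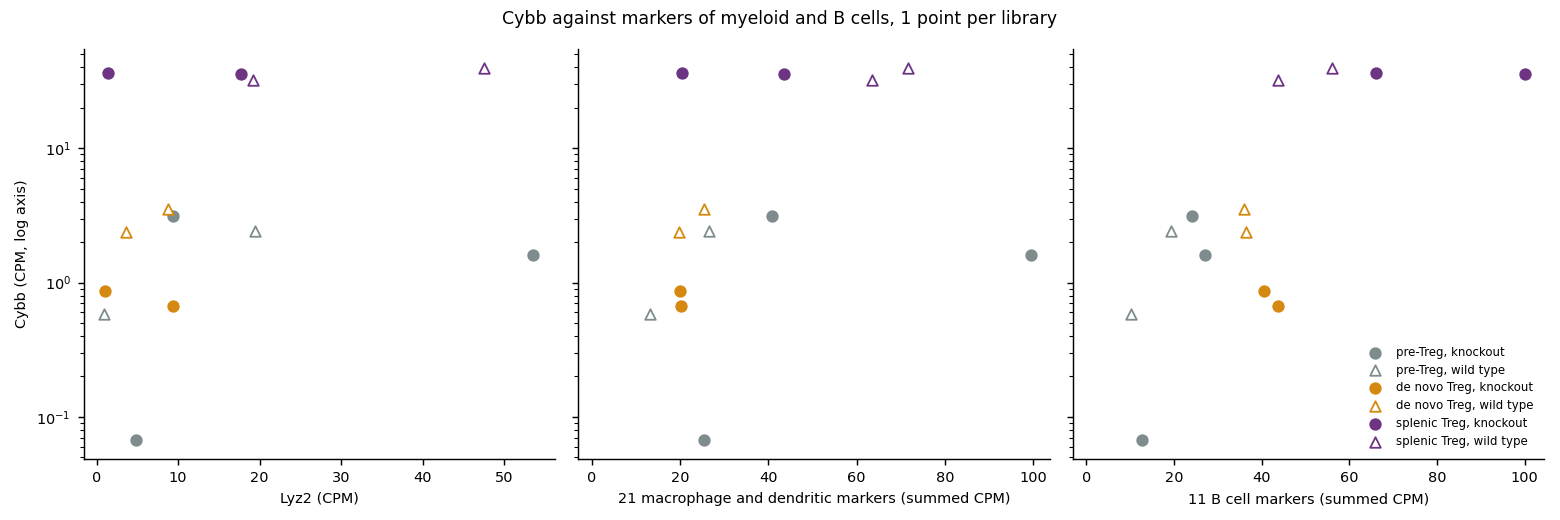
Cybb level (vertical axis, CPM, log scale) against Lyz2, the summed 21 macrophage and dendritic cell markers and the summed 11 B cell markers (horizontal axes, CPM), 1 point per library. The 4 splenic libraries lie between 32.0 and 39.6 CPM of Cybb while Lyz2 runs from 1.35 to 47.6 CPM.

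In de novo Tregs some markers of other cells were lower in the knockout, as Cybb was, and others were not. The summed B cell markers were higher in the knockout, at 43.8 and 40.5 CPM against 36.0 and 36.3 CPM in wild type. That sum rests largely on Cd79b, which averaged 29.8 CPM in the knockout and 19.2 CPM in wild type. The median log2 fold change of the 6 B cell genes tested was −0.23. The granule sums were lower in the knockout, and the macrophage and dendritic sums overlapped. The B cell gene Ms4a1 stood at 0.55 and 0.12 CPM in the knockout, against 1.80 and 1.64 CPM in wild type (log2 fold change −2.37, SE 0.63, edgeR adjusted p = 0.0475). The granule genes Ngp and Lcn2 were also lower: Ngp at 0.04 and 0.24 against 2.03 and 2.83 CPM (−4.05, SE 0.65, edgeR adjusted p = 0.00306), and Lcn2 at 0 counts in both knockout libraries against 0.46 and 0.60 CPM (edgeR adjusted p = 0.0286). Not all granule genes were lower. Ltf averaged 2.04 CPM in the knockout and 1.96 CPM in wild type, and Mmp9 2.55 against 1.86 CPM. S100a8 averaged 0.33 against 1.70 CPM and S100a9 0.38 against 1.99 CPM. The red cell gene Hba-a1 stood at 0 and 0.04 CPM in the knockout and 31.6 and 1.12 CPM in wild type (edgeR adjusted p = 0.0127). The part of these cells in the Cybb difference was not tested. Of the marker lists in de novo Tregs, 0 of 11 tested macrophage and dendritic genes passed, 0 rose and 2 fell of 6 tested granule genes, and 1 rose (Cd79b) and 1 fell of 6 tested B cell genes. Of the other lists, 2 of 3 tested red cell and platelet genes fell, and 2 of 3 genes listed as thymic stroma rose (Epcam, Pecam1). Epcam and Pecam1 were also read in wild-type splenic Tregs, averaging 35.3 and 208 CPM, so the list name does not tell which cells expressed them. The stroma gene Psmb11 was at 0 in every group. Further, 1 of 6 CD8 and NK genes fell (Eomes), 2 of 10 Treg and T cell genes rose (Ctla4, Il2ra) and 0 of 4 Y-linked genes passed. In splenic Tregs 1 of 10 B cell genes (Cd79b) and 1 of 10 Treg and T cell genes (Ctla4) rose in the knockout, and 0 genes of the other marker lists passed. In pre-Tregs 0 genes of any marker list passed. In de novo Tregs Ncf1 stood at 28.0 to 29.8 CPM in the knockout and 104 to 110 CPM in wild type. This was above the sum of either myeloid list in each of the 4 de novo libraries. The B cell sum, to which Cd79b gave the most, was above Ncf1 in the knockout and below it in wild type. The sums leave out Mpo and Lyz2, which stood at 0.38 and 9.40 CPM in knockout replicate 1. The macrophage and dendritic sum there was 20.3 CPM and Ncf1 29.8 CPM, so the order in that library depends on leaving them out. The part of other cells in the Ncf1 level was not tested.

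Counts of members called are set here beside the same counts over all genes tested. In de novo Tregs 2 of 7 members fell in the knockout and 0 rose, with a median log2 fold change of −0.25, while 3.54% of 11855 genes fell and 2.92% rose, with a median of 0.00. In splenic Tregs 0.758% of 12264 genes fell and 0.612% rose, and no count of members is set beside them because the choice of genes used that comparison. In pre-Tregs 0 of 7 members passed, and 0% of 14746 genes did in edgeR, where 969 genes, 2 members (Ncf1 and Mpo) among them, had an unadjusted p under 0.05. DESeq2 called 88 genes and limma-voom 0 at that stage. The difference of genotype effects between the thymic stages passed for 0 of 7 members and for 0.0842% of 13058 genes. There 1 of 7 members (Mpo) had an unadjusted p under 0.05 in edgeR, beside 10.2% of all genes.

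For the stage comparisons, de novo over pre-Tregs, 4 of 7 members rose in each genotype, the subunits Ncf1, Ncf4, Cyba and Rac2. In the knockout 1 fell, Mpo, and in wild type 0 fell. Over all 13058 genes 15.4% rose and 17% fell in the knockout, and 16.1% rose and 14.7% fell in wild type. Splenic over de novo Tregs, 2 of 7 rose (Ncf4, Cybb) and 2 fell (Ncf1, Mpo) in the knockout, beside 6.48% and 6.39% of all genes. In wild type 3 rose (Ncf4, Cybb, Mpo) and 1 fell (Ncf1), beside 3.5% and 3.95%. The stage comparisons of one genotype share their de novo libraries, and the splenic calls of Ncf1 are not independent of its choice.

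Of 13 other genes of the oxidase family, none passed the test between genotypes: 6 were tested in each thymic stage and 0 passed, and 7 were tested in splenic Tregs, where 0 passed. Nox3, Nox4 and Duoxa2 were at 0 in every library. Noxa1, which activates the oxidase Nox1, was the one besides Cybb to appear with the spleen. It stood at 33.9 and 31.0 CPM in knockout and 24.0 and 17.0 CPM in wild-type splenic Tregs, and at 0.34 and 0.71 against 2.30 and 0.75 CPM in de novo Tregs. Splenic over de novo Tregs gave log2 fold changes of 5.93 in the knockout (SE 0.67, edgeR adjusted p = 0.00015) and 3.75 in wild type (SE 0.58, edgeR adjusted p = 0.0021). Hvcn1, the proton channel that balances the charge moved by the oxidase, was 0.87 higher on the log2 scale in de novo than in pre-Tregs of wild type (SE 0.23, edgeR adjusted p = 0.0141). BC017643, the older symbol of Cybc1 whose product stabilizes the Cybb and Cyba proteins, was 0.69 higher on that scale in de novo than in pre-Tregs of the knockout (SE 0.12, edgeR adjusted p = 0.00121). Rap1a, a small GTPase that copurifies with the membrane subunits, fell in wild type over the same step, at −0.91 (SE 0.21, edgeR adjusted p = 0.00845).

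Among 12 regulators of Rac, 2 rose and 3 fell in knockout de novo Tregs. Swap70, which binds active Rac, fell (log2 fold change −0.76, SE 0.08, edgeR adjusted p = 0.000121), as did the exchange factor gene Vav3 (−0.50, SE 0.11, edgeR adjusted p = 0.0189). Arhgap15, which turns Rac off, rose (0.53, SE 0.07, edgeR adjusted p = 0.00111), as did the exchange factor gene Tiam1 (0.41, SE 0.11, edgeR adjusted p = 0.0414). The list's median log2 fold change was 0.04, against 0.00 over all genes. In splenic Tregs 1 of 12 passed, Swap70, at 146 and 124 CPM in the knockout and 201 and 213 CPM in wild type (−0.62, SE 0.11, edgeR adjusted p = 0.0481). In pre-Tregs 0 of 12 passed.

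Of 8 protein and lipid kinases listed for their links to the oxidase or Rac, Pak1, a Rac effector, was the 1 that fell in the knockout in de novo Tregs (−0.63, SE 0.16, edgeR adjusted p = 0.035) and in splenic Tregs (−1.15, SE 0.18, edgeR adjusted p = 0.0345). It stood at 10.5 and 11.8 CPM in knockout and 17.5 and 17.0 CPM in wild-type de novo Tregs, and at 5.46 and 5.33 against 12.2 and 11.6 CPM in splenic Tregs. In pre-Tregs 0 of 8 passed. Of the antioxidant genes, 1 of 23 tested rose in knockout de novo Tregs and 0 fell. This was Gclc, the catalytic subunit of glutathione synthesis, at 251 and 242 CPM against 138 and 155 CPM (0.75, SE 0.08, edgeR adjusted p = 0.000276). In splenic Tregs 1 of 24 rose, Txnip, which inhibits thioredoxin (0.87, SE 0.13, edgeR adjusted p = 0.0298), and in pre-Tregs 0 of 23 passed. Hmox1, which degrades heme, was higher in splenic than in de novo Tregs, by 2.31 in the knockout (SE 0.41, edgeR adjusted p = 0.00266) and 4.05 in wild type (SE 0.43, edgeR adjusted p = 0.000256).

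The genes most like 3 of the members in their profile over the 13 libraries were found among 9656 genes with a mean of at least 5 CPM, by the root mean square difference of centred log2 CPM. For Ncf1, whose own profile had a standard deviation of 1.48, these were Dpt (difference 0.62), Dgat2 (0.67), Selp (0.73), Sdc4 (0.80) and Ap1m2 (0.81). Dpt, the nearest, averaged 9.90 CPM in knockout and 18.7 CPM in wild-type de novo Tregs, Selp 40.0 against 60.9 CPM, and Sdc4 5.23 against 36.4 CPM. For Ncf4, with a standard deviation of 1.14, they were Pkp3 (0.15), Adgre5 (0.16), Pou2f2 (0.19), Prr13 (0.22) and Xdh (0.23). For Cybb, with a standard deviation of 2.51, they were Csf1 (1.05), Cst7 (1.22), Naip5 (1.29), Tigit (1.35) and Pde2a (1.35), all farther from it than those of Ncf4 from Ncf4. Csf1, the nearest, averaged 51.5 CPM in knockout and 41.0 CPM in wild-type splenic Tregs, and 4.16 against 7.37 CPM in de novo Tregs.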

How the data were processed

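Total RNA of sorted cells was sequenced in 13 libraries, grouped by genotype and stage from the sample titles. The authors deposited counts per gene that had not been normalized, in 1 table per stage: all biotypes for pre-Tregs and protein-coding genes for the other stages. Per the submitters' processing notes, the tools were STAR 2.5.2, featureCounts, Subread 1.5.2, FastQC, Picard 2.9.0, MultiQC and limma, and the build GRCm38. Strandedness and the annotation release: not given in the sources used here, so overlapping genes cannot be told apart. All 13 per-sample columns were used. Depth limits precision at the low levels of Cybb and Mpo.

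Genotypes were compared within each stage, and stages and the genotype by stage difference in 1 fit of the 6 group means to all libraries, with edgeR 4.0.16 in R 4.3.3 (TMM, filterByExpr, min.count 10, min.total.count 15, quasi-likelihood F-test, Benjamini-Hochberg adjustment over all genes tested). All 7 genes passed the filter in every comparison. Calls, and the words rise and fall, require an adjusted p under 0.05. The SE comes from the log2 fold change and its F statistic. The fits were tested on simulated counts. Alternatives were RLE factors, no filter, DESeq2 1.42.0, limma-voom (limma 3.58.1), each library left out, a replicate block and, for genotype, the spread of all libraries.

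The members, the gene lists and these tests were chosen with earlier results of these data known. Besides the 7 genes, the rule for named genes takes Rac1, Lyz1, Foxp3, Cd3e, Cd4, up to 4 called genes with the smallest p per list and comparison, and the 5 nearest profiles of Ncf1, Ncf4 and Cybb. Marker genes named at 0 or beside Cybb, and Rel and Xist, were chosen outside this rule after their values were seen. Of the fixed lists, 2 genes are not reported here and are left out of the counts and sums.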

Additional observations from a re-analysis of the deposited data

Results flagged for a closer look

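For 1 of the 7 members, Mpo, the knockout and wild-type libraries separated in opposite directions at different stages, with no overlap at those stages. The share of all genes that separate in this way was not computed, so it is not known how unusual the pattern is. The thymic levels of Mpo rest on 9 to 61 counts per library. The differences between these stages were not tested for the spleen. This granule peroxidase gene was higher in every knockout library in pre-Tregs, at a log2 fold change of 1.46, and lower in every knockout library in de novo Tregs, at −0.65, and in splenic Tregs, where it was at least 43.7-fold lower with both knockout libraries at 0 counts, a limit that is 15.8-fold without wild-type replicate 2. Between the thymic stages the difference of the Mpo effects was tested, at −2.10 (SE 0.96), and did not pass (edgeR adjusted p = 0.485).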

How the results depend on the processing

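Ncf1 was called in all alternatives in de novo Tregs (log2 fold change −1.93 to −1.84) and in the stage comparisons of both genotypes. No call of a member changed direction. The number of the 7 members called between genotypes was 1 in place of 0 in pre-Tregs (Ncf1) and 1 in place of 2 in de novo Tregs with the spread of all 13 libraries. That spread (common coefficient of variation 0.189) is below that of pre-Tregs (0.284) and above that of de novo Tregs (0.0939). Leaving out 1 library at a time gave 1 to 2 members in de novo Tregs. For the stages it gave 2 to 6 in place of 5 (de novo over pre-Tregs) and 2 to 3 in place of 4 (splenic over de novo) in the knockout, and 2 in place of 4 and 1 to 2 in place of 4 in wild type. The cause was not tested beyond the fewer libraries in such a fit.

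Over all genes, calls ranged over 0 to 88 in pre-Tregs (0 in the report), 100 to 1039 in de novo Tregs (766) and 60 to 2508 in splenic Tregs (168). In splenic Tregs there were 475 calls without the filter, 526 in DESeq2, 60 with the spread of all 13 libraries and 220 to 2508 with 1 library left out, the most without knockout replicate 1. For de novo over pre-Tregs they ranged over 1860 to 6534 in the knockout (4228) and 1274 to 4735 in wild type (4015). For splenic over de novo Tregs they ranged over 619 to 2246 in the knockout (1681) and 257 to 1583 in wild type (973). The genotype by stage difference gave 3 to 213 (11).

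Same-numbered libraries did not deviate together (correlations of −0.09 to −0.05 over 9656 genes), so the replicate numbers were not taken as pairs. With the replicate block, 77 genes were called in pre-Tregs and 361 in splenic Tregs. The block ended the calls of Mpo in splenic over de novo Tregs of wild type (edgeR adjusted p = 0.0811) and of Rac1 in de novo over pre-Tregs of the knockout (0.0951).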
